A study of Mus musculus with 12 samples.

Results

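Arc, Lrrc10, Slc1a2, Mapt, Maf and Kctd12b are 6 genes whose mean normalized count in adult mouse cardiomyocytes was below that of PBS-treated cells with mOSM and lower still with hlOSM. They were picked from the 22915 genes of the deposited table, all 6 are listed there, and all 6 passed the filter on low values that left 13184 genes for testing. Because the difference between hlOSM and mOSM chose them, that difference and the falls with both cytokines are given as a description without a test. The level with mLIF does not enter that difference, so the comparison of mLIF with PBS was tested. It is not fully independent of the choice, because the PBS libraries enter the falls that the choice names and the spread of all 12 libraries, mLIF included, set the threshold that the genes passed. A small spread thus favoured both, and the p-values with mLIF may be too small.

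Leukemia inhibitory factor (LIF) and oncostatin M (OSM) belong to the interleukin-6 family of cytokines, which signal through pairs of receptor chains that contain gp130 and activate JAK kinases and STAT transcription factors. LIF uses the LIF receptor (LIFR). Mouse OSM (mOSM) uses the OSM receptor (OSMR), whereas human OSM can use either receptor, and hlOSM is mouse OSM that carries the human AB loop and engages OSMR and LIFR in mouse cells. In heart muscle this family is known for survival signals and, when OSM acts for long, for loss of contractile features. The design thus sets LIFR alone (mLIF), OSMR alone (mOSM) and both receptors (hlOSM) against PBS.

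Primary cardiomyocytes of male C57/Bl6 mice aged 12 weeks were cultured and treated under normoxia for 24 h. Each of the 4 conditions, PBS, mLIF, mOSM and hlOSM, has 3 libraries, 12 in all. The sample descriptions give 25 ng/mL for each cytokine and the paper's methods a lower concentration. The paper's methods speak of biological replicates without naming what was replicated, and neither source ties a library to an animal or culture, so p-values measure the spread between these libraries. Values are normalized counts, that is, read counts per gene that the authors scaled between libraries and rounded to whole numbers. Library totals of 2745748 to 2911891 are on this scale and are not read numbers. The paper gives an average read number per library but not that of each library, so the depth of each is unknown. The number that a replicate carries accounted for 1.70% of the spread within conditions, and 25% is what a number without effect would hold. A share so far below 25% does not show that the numbers carry no pairing. Values from which a replicate effect was removed before deposit would also give it. The summed level of 12 cardiomyocyte marker genes was 50871 to 53040 with PBS, 44264 to 46323 for mLIF, 36278 to 40713 for mOSM and 37107 to 39658 for hlOSM. Most of this sum is Ttn, with a mean of 32924 with PBS and 23564 with hlOSM. Of the 12 genes, 7 were called lower with mLIF, 8 with mOSM and 8 with hlOSM. Myl2, Myl3, Mb and Ckm were not called with any cytokine against PBS. Between mOSM and hlOSM, no gene of the 6 cell type marker lists passed the threshold in either direction. Only 14 of 13184 tested genes (0.106%) did, so this cannot tell whether the cell types differed between them. In such bulk RNA, fewer cells of a type and less RNA per cell cannot be told apart.

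The 6 genes do different work. Arc (ENSMUSG00000022602, chr15:74669083-74672570, minus strand) encodes an activity-regulated protein of the cytoskeleton, best known as an immediate early gene of neurons. Lrrc10 (ENSMUSG00000060187, chr10:117045341-117046768, plus strand, a single exon) encodes a leucine-rich repeat protein of the cardiomyocyte sarcomere. Slc1a2 (ENSMUSG00000005089, chr2:102658659-102790784, plus strand) encodes the glutamate transporter GLT-1. Mapt (ENSMUSG00000018411, chr11:104231390-104332090, plus strand) encodes the microtubule-associated protein tau. Maf (ENSMUSG00000055435, chr8:115682942-115707794, minus strand) encodes c-MAF, a large basic leucine zipper transcription factor. Kctd12b (ENSMUSG00000041633, chrX:153685154-153696391, minus strand) encodes a protein with a KCTD domain, a relative of the auxiliary subunits of GABA-B receptors. Positions are on mm10, as the table lists them.

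RefSeq promoter sequences (GRCm38.p6) were at hand for Lrrc10 and Slc1a2. They are shown because both genes fell with mLIF, as the 250 bases before the RefSeq transcript start on the plus strand, with a GATA core (GATAA) and a TATA box (TATAAA) in capitals where they occur. The Lrrc10 window is chr10:117045091-117045340. The Slc1a2 window is chr2:102706188-102706437, which lies inside the gene's interval in the table, before an internal start.
Lrrc10: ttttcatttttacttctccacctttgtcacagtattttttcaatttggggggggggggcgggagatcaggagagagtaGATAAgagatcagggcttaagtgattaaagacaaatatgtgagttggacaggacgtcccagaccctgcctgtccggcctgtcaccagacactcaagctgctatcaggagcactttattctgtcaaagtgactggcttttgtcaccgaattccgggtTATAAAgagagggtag
Slc1a2: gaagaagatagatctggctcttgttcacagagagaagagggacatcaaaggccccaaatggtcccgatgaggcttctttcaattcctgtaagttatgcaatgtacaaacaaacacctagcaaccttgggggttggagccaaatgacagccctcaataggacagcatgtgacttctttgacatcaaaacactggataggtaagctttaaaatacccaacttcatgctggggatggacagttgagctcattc
In the Lrrc10 window the letters TATAAA lie at bases -16 to -11 from the start and GATAA at -172 to -168. Both are matches of letters, and whether either site works was not tested. On either strand, 12.4% of 32851 mouse promoters held TATAAA in the window of this length and 22.6% held GATAA. Neither window held the STAT element TTCNNNGAA, which 7.02% of promoters held, or the AP-1 element TGANTCA, which 6.75% held. The M-CAT element GGAATG (12.6% of promoters), a CArG box (1.47%) and a MEF2 site (2.92%) were also not among the letters of either window. Slc1a2 held 4 matches to the E-box CANNTG and Lrrc10 held none, and 66.2% of promoters held at least 1.

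Arc, the activity-regulated gene, had normalized counts of 208, 231 and 237 in PBS libraries, 135, 142 and 148 in those with mLIF, 126, 130 and 149 in those with mOSM, and 101, 82 and 76 in those with hlOSM. PBS stood above all other libraries and hlOSM below them, while the mLIF and mOSM libraries overlapped. The mean with mLIF was 62.9% of the PBS mean, close to the 59.9% with mOSM, and that with hlOSM was 38.3%. On the log2 scale Arc fell by 0.66 ± 0.10 (SE, n = 3) with mLIF against PBS (limma, adjusted p = 0.000254).

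Lrrc10, the sarcomere protein, gave 223, 204 and 272 in PBS libraries, 173, 174 and 151 in those with mLIF, 96, 102 and 95 in those with mOSM, and 63, 64 and 67 in those with hlOSM. No library of any condition overlapped with those of another. Among the 6 genes Lrrc10 had the lowest share left with mOSM, 41.9% of the PBS mean, and with hlOSM, 27.8%, whereas 71.2% remained with mLIF. The change with mLIF was a fall by 0.48 ± 0.10 (SE, n = 3) on the log2 scale (adjusted p = 0.00346).

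Slc1a2, the glutamate transporter, measured 150, 145 and 140 in PBS libraries, 91, 102 and 96 in those with mLIF, 85, 83 and 86 in those with mOSM, and 58, 54 and 64 in those with hlOSM. The 4 conditions did not overlap, but the gap between mLIF and mOSM was narrow, from 91 to 86. Means were 66.4% of PBS for mLIF, 58.4% for mOSM and 40.5% for hlOSM. With mLIF the gene fell by 0.59 ± 0.10 (SE, n = 3) on the log2 scale (adjusted p = 0.000499).

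Mapt, the tau gene, had the smallest log2 difference of the 6 with each of the 3 cytokines. Its normalized counts were 492, 510 and 481 in PBS libraries, 423, 417 and 457 in those with mLIF, 409, 393 and 416 in those with mOSM, and 322, 324 and 336 in those with hlOSM. The conditions did not overlap, yet the lowest mLIF library, 417, and the highest mOSM library, 416, differed by a single count. Means were 87.5% of PBS for mLIF, 82.1% for mOSM and 66.2% for hlOSM. The fall by 0.19 ± 0.06 (SE, n = 3) with mLIF passed the threshold (adjusted p = 0.0342), but not in a fit blocked on the replicate number (adjusted p = 0.0846), nor without the filter, with quantile rescaling or without any one of the 3 PBS libraries, mLIF replicate 1 or mLIF replicate 2, where p reached 0.137.

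Maf, the transcription factor, had 523, 512 and 550 in PBS libraries, 372, 423 and 379 in those with mLIF, 290, 266 and 341 in those with mOSM, and 236, 227 and 210 in those with hlOSM. Again no conditions overlapped, although the mOSM libraries spread from 266 to 341. Means were 74.1% of PBS for mLIF, 56.6% for mOSM and 42.5% for hlOSM. With mLIF, Maf fell by 0.43 ± 0.08 (SE, n = 3) on the log2 scale (adjusted p = 0.00136).

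Kctd12b, the KCTD gene, had 72, 66 and 89 in PBS libraries, 47, 55 and 43 in those with mLIF, 36, 41 and 50 in those with mOSM, and 28, 23 and 19 in those with hlOSM. The mLIF and mOSM libraries overlapped, and both lay between PBS and hlOSM. Means were 63.9% of PBS for mLIF, 55.9% for mOSM and 30.8% for hlOSM. The fall by 0.63 ± 0.17 (SE, n = 3) with mLIF passed the threshold (adjusted p = 0.0184), but not without PBS replicate 3 (adjusted p = 0.112), mLIF replicate 1 (0.0577) or mLIF replicate 3 (0.0984).

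**Figure D1:**
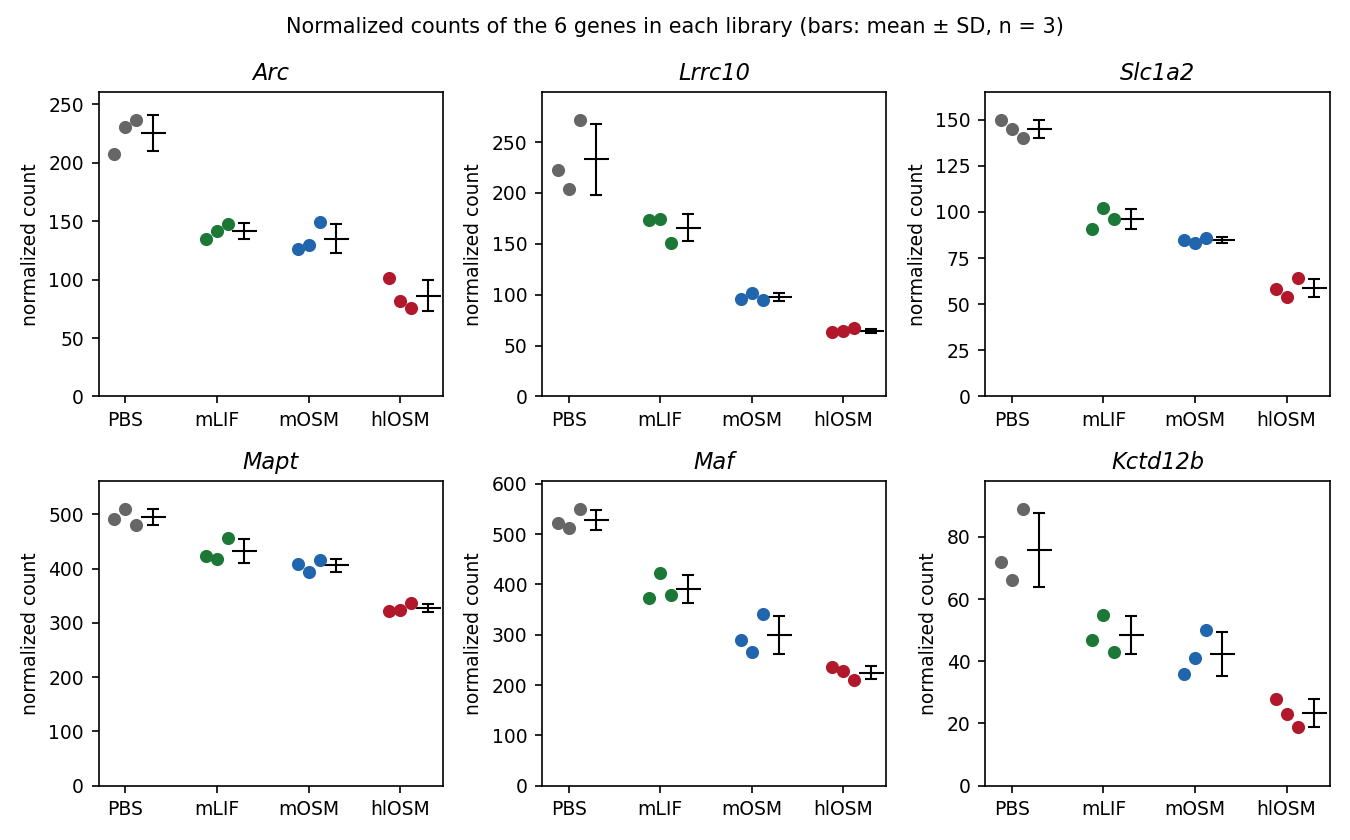
Normalized counts (vertical axes, from 0) of the 6 genes in each of the 12 libraries, by condition, with the mean and SD of 3 libraries beside the points. In every panel the 3 PBS libraries are the highest and the 3 hlOSM libraries the lowest, and the mLIF and mOSM points of Arc and Kctd12b overlap.

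Levels can be compared between genes only per length. Divided by the exonic length of GENCODE vM21, the PBS mean per kilobase was 163 normalized counts for Lrrc10, 73.7 for Arc, 65.6 for Mapt, 64.1 for Maf, 15.4 for Kctd12b and 11.0 for Slc1a2. With hlOSM the order of the first places was closer, with 45.3 for Lrrc10, 43.5 for Mapt, 28.2 for Arc and 27.2 for Maf. Kctd12b (4.76) and Slc1a2 (4.47) were nearly level. Of the exonic bases of Maf, 5.34% are overlapped by Gm15655 on the other strand, and of those of Slc1a2 1.44% by Gm13872. Whether the counting used strand is not given in the sources used here.

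All 6 genes fell with mLIF, where 4.44% of the tested genes were called lower, and their median log2 difference was -0.53 against 0.00 over all tested genes. Every mLIF library lay below every PBS library in the 6 genes, a pattern that 15.6% of tested genes showed. The same held for mOSM (19.9% of tested genes) and hlOSM (24.3%) against PBS, as the choice of genes favours. Arc, Lrrc10, Slc1a2 and Maf kept their call in 21 of 21 alternative settings, Kctd12b in 18 and Mapt in 13. Besides the 6, 8 more genes were called lower with hlOSM than with mOSM. Over all 8, the median log2 difference of mLIF against PBS was -0.51, and 5 of the 8 were also called lower with mLIF. Over all 2609 genes called lower with hlOSM against PBS, this median was -0.19. Of these 2609 genes, 526 (20.2%) were called lower with mLIF.

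The step from mOSM to hlOSM and the change from PBS to mLIF share no library, so they were set side by side. Their log2 differences were -0.65 and -0.66 for Arc, -0.59 and -0.48 for Lrrc10, and -0.53 and -0.59 for Slc1a2. They were -0.31 and -0.19 for Mapt, -0.41 and -0.43 for Maf, and -0.84 and -0.63 for Kctd12b. The log2 difference with hlOSM less the sum of those with mLIF and mOSM was 0.02 ± 0.14 (SE) for Arc, -0.11 ± 0.14 for Lrrc10 and 0.06 ± 0.13 for Slc1a2. It was -0.12 ± 0.08 for Mapt, 0.03 ± 0.11 for Maf and -0.20 ± 0.23 for Kctd12b. All but that of Mapt were within 1 SE of 0. The choice of genes by the first of the 2 steps enters these values, which are therefore no test of additivity. Of the 580 other genes called lower with mLIF, 85.3% had a lower mean with hlOSM than with mOSM, beside 52.1% of all tested genes, but their median step was -0.09 beside a median mLIF difference of -0.35. Their median departure from the sum was 0.23, hlOSM being less negative than the sum. These 580 genes were chosen by a low level with mLIF against PBS, and that difference enters the sum. The choice alone pushes the departure upward, so this median is no test of additivity either.

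**Figure D2:**
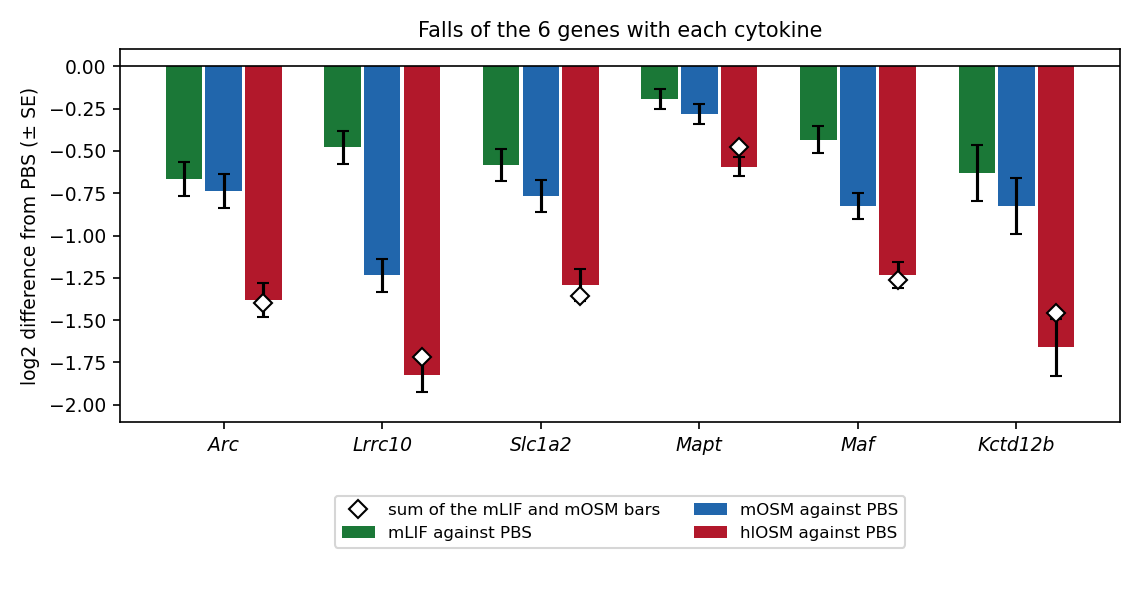
Log2 difference from PBS of the 6 genes with mLIF, mOSM and hlOSM (bars, with SE of the limma fit, n = 3 libraries per condition). White diamonds mark the sum of the mLIF and mOSM bars, which for Arc reached -1.40 beside a bar of -1.38 for hlOSM.

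**Figure D3:**
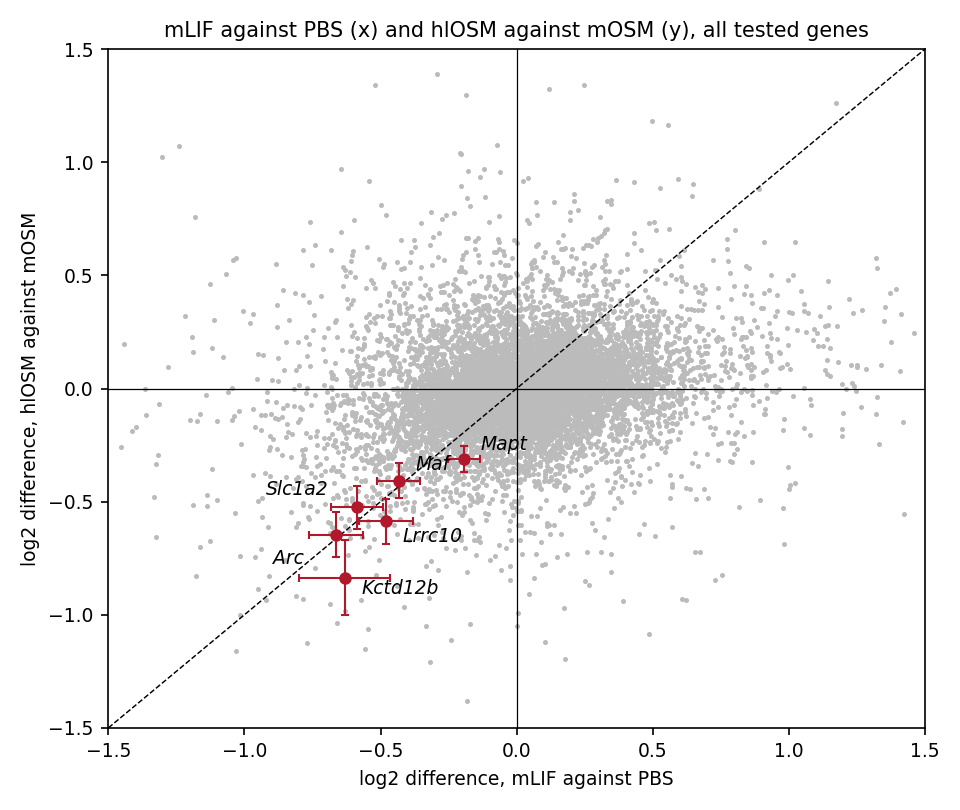
Log2 difference of mLIF against PBS (horizontal) and of hlOSM against mOSM (vertical) for 13157 tested genes in grey and the 6 genes in red with SE bars, and 27 genes beyond 1.5 on an axis are not drawn. The dashed line marks equal values, and the 6 genes lie near it in the lower left, where the vertical position of each was fixed by the choice.

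Against mLIF, the genes differed in how far mOSM went. Lrrc10 was lower with mOSM by 0.76 on the log2 scale and Maf by 0.39, with no overlap. The log2 difference was -0.18 for Slc1a2 and -0.09 for Mapt, also without overlap, and -0.07 for Arc and -0.19 for Kctd12b, with overlap. Among tested genes 14.1% had every mOSM library below every mLIF library, and 4 of the 6 genes did. With hlOSM all 6 lay below mLIF without overlap, as 17.1% of tested genes did, by log2 differences of -0.40 for Mapt to -1.34 for Lrrc10. The order PBS, mLIF, mOSM, hlOSM without overlap at any step was found in Lrrc10, Slc1a2, Mapt and Maf and in 107 tested genes in all (0.812%).

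All 6 genes were lower with hlOSM than with mOSM in every library, and 5.62% of tested genes were. The threshold that selected them called 14 genes lower (0.106%) and none higher, with 987 genes at an unadjusted p under 0.05. Under the 21 alternative settings Arc was called lower in 19, Lrrc10 in 14, Slc1a2 in 9, Mapt in 8, Maf in 7 and Kctd12b in 4. No gene of the 6 was called when only the mOSM and hlOSM libraries were fitted or without mOSM replicate 3, and a fit blocked on the replicate number called Arc alone. The median log2 differences of the 6 against PBS were -0.80 with mOSM, where 15.8% of tested genes were called lower, and -1.34 with hlOSM, where 19.8% were.

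The relatives of the 6 genes give the setting. Lists of 6 families, drawn up from what each gene is known to do, held 140 further genes, of which 120 were tested. With hlOSM against PBS, 37 of these 120 fell and 29 rose, beside 19.8% and 18.2% of all tested genes, and with mOSM 30 fell and 25 rose, beside 15.8% and 15.4%. With mLIF, 12 fell and 8 rose, beside 4.44% and 5.47% of all tested genes. Between hlOSM and mOSM limma called 0 of the 120 in either direction, with 16 at an unadjusted p under 0.05 and the smallest adjusted p at 0.200. Of all 13184 tested genes 14 (0.106%) were called and 987 had an unadjusted p under 0.05. With so few calls, 0 of 120 cannot tell whether the relatives share the step.

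Of 23 tested immediate early genes besides Arc, 8 rose and 7 fell with hlOSM, and 2 rose and none fell with mLIF. Ier3, an early response gene, rose by 0.52 ± 0.09 with mLIF (adjusted p = 0.000651) and by 0.85 ± 0.09 with hlOSM (adjusted p = 7.96e-08). Egr2, a zinc finger factor, fell by 0.89 ± 0.12 with hlOSM (adjusted p = 6.54e-06), and its log2 difference with mLIF was -0.24 (adjusted p = 0.233). The median of the list was -0.03 with hlOSM, beside -1.38 for Arc.

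Of 19 genes of the Lrrc10 list, which holds proteins known or thought to work with LRRC10 and leucine-rich repeat genes of the heart, 12 fell and 2 rose with hlOSM, as with mOSM, and 5 fell and 2 rose with mLIF. Cacna1c, the pore of the cardiac L-type calcium channel, fell by 0.21 ± 0.06 with mLIF (adjusted p = 0.0185), by 0.58 ± 0.06 with mOSM (adjusted p = 3.91e-08) and by 0.78 ± 0.06 with hlOSM (adjusted p = 2.80e-10). Mef2c, a transcription factor of muscle, fell by 0.29 ± 0.06 with mLIF (adjusted p = 0.00346) and by 0.76 ± 0.06 with hlOSM. Lrrc39 fell with mLIF by 0.26 ± 0.07 (adjusted p = 0.024) and with hlOSM by 0.50 ± 0.07. Lrrc14b fell by 0.56 ± 0.07 with hlOSM (adjusted p = 1.22e-06), and Lrrc2 had a log2 difference of -0.11 (adjusted p = 0.130). The median of this list with hlOSM was -0.27, and the cardiomyocyte marker genes had a median of -0.31, with 8 of 12 lower.

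Of the other tested Slc1 family transporters, Slc1a1, Slc1a3, Slc1a4 and Slc1a5, none was called with mLIF or hlOSM. Slc1a1 was at 9 to 17 with PBS and 10 to 13 with hlOSM, and Slc1a3 at 17 to 22 and 9 to 19. Slc1a3 fell by 0.78 ± 0.29 with mOSM (adjusted p = 0.0426). Slc1a4 and Slc1a5, carriers of neutral amino acids, had log2 differences of 0.34 and 0.37 with hlOSM (adjusted p = 0.254 and 0.216). In the list of 23 tested genes of glutamate transport and metabolism, 7 rose and 4 fell with hlOSM. Slc7a11, which exports glutamate in exchange for cystine, rose by 0.68 ± 0.16 with mLIF (adjusted p = 0.011) and by 1.19 ± 0.16 with hlOSM (adjusted p = 5.11e-06). Glul, glutamine synthetase, rose by 0.26 ± 0.05 with hlOSM (adjusted p = 0.000581).

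Among 30 tested microtubule-associated proteins and tau kinases besides Mapt, 11 fell and 7 rose with hlOSM, and 6 fell and 2 rose with mLIF. Map4, with normalized counts of 2820 to 2866 in PBS, fell by 0.27 ± 0.05 with mLIF (adjusted p = 0.00145) and by 0.32 ± 0.05 with hlOSM (adjusted p = 2.14e-05). Map1a fell by 0.47 ± 0.09 with mLIF (adjusted p = 0.00273) and by 0.77 ± 0.09 with hlOSM, whereas Map1b rose by 0.48 ± 0.09 with hlOSM (adjusted p = 0.000129). Map2 fell by 1.33 ± 0.21 with mOSM (adjusted p = 4.31e-05) and fell by 1.12 ± 0.21 with hlOSM (adjusted p = 0.000242). Clasp1 and Clip1, which bind growing microtubule ends, fell with hlOSM by 0.60 ± 0.05 and 0.54 ± 0.06 (adjusted p = 1.42e-08 and 3.62e-07).

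Of 8 tested genes of the MAF list besides Maf, 2 rose and 2 fell with hlOSM, and 1 rose and 1 fell with mLIF. The small MAF proteins Maff, Mafg and Mafk were not called with any cytokine against PBS. Their log2 differences with hlOSM were -0.17, 0.06 and -0.11. Of the partner factors, Bach1 rose by 0.21 ± 0.06 with mLIF (adjusted p = 0.0381) and by 0.32 ± 0.06 with hlOSM (adjusted p = 0.000352). Bach2 fell by 0.80 ± 0.16 with hlOSM (adjusted p = 0.000488).

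Among the close relatives of Kctd12b, Kctd12 had normalized counts of 131 to 146 in PBS and 120 to 145 with hlOSM, a log2 difference of -0.09 (adjusted p = 0.536). Kctd8, at 15 to 20 in PBS, fell by 0.70 ± 0.24 with hlOSM (adjusted p = 0.0255), and Kctd16 was too low to be tested. Of 17 tested genes of the list, 3 rose and 1 fell with hlOSM, and 0 were called with mLIF. Kctd20 rose by 0.44 ± 0.09 with hlOSM (adjusted p = 0.000299) and Kctd11 by 0.53 ± 0.16 (adjusted p = 0.0118).

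**Figure D4:**
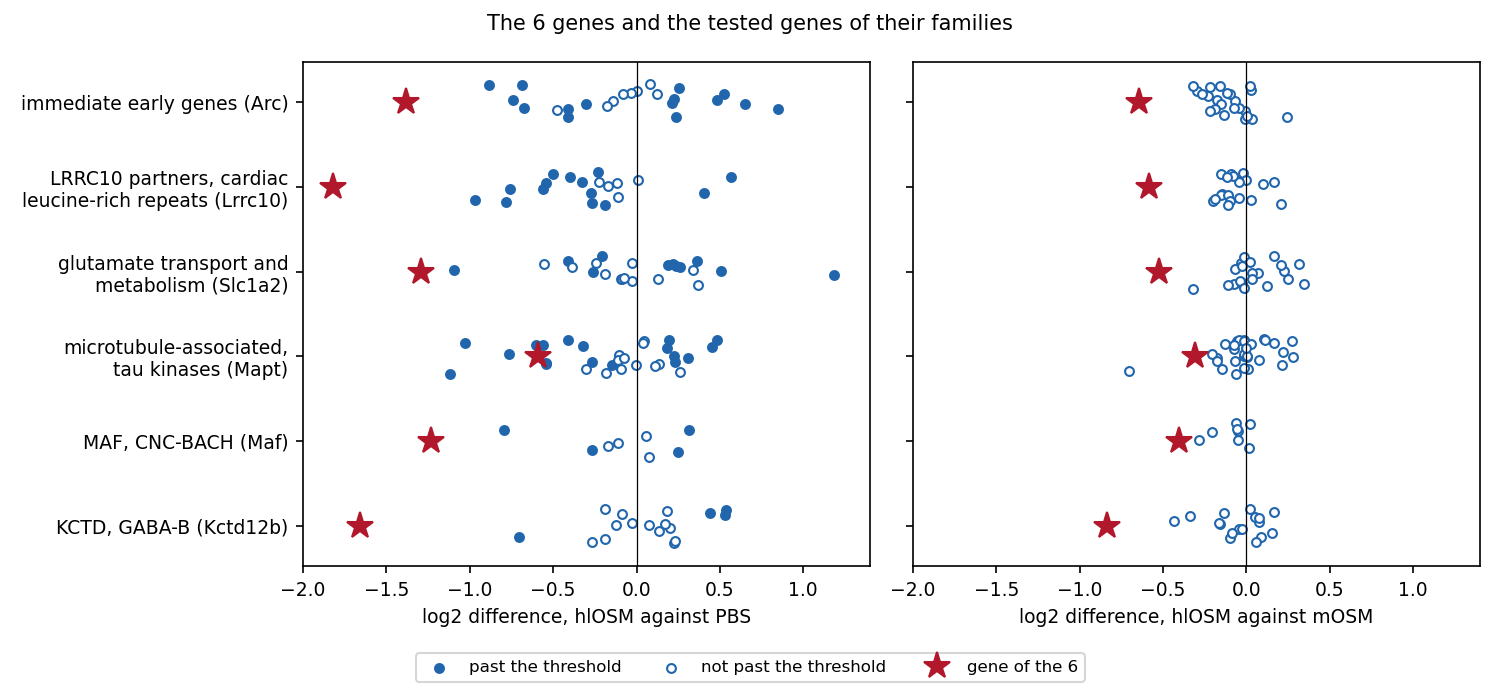
Log2 difference of hlOSM against PBS (left) and against mOSM (right) for the 6 genes (red stars) and the 120 tested genes of their 6 families (circles, filled where the adjusted p was under 0.05). The relatives lie on both sides of 0 against PBS, and no circle on the right is filled. The stars on the right stand where the choice of genes put them.

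The genes next to the 6 on their chromosomes were read for the same changes. Of 12 nearest tested neighbours, 1 on each side, none was called lower with mLIF and none was called between hlOSM and mOSM. Over all tested genes these shares were 4.44% and 0.106%, so no call among 12 genes lies near them and cannot tell whether neighbours share the pattern. Cct2, a chaperonin subunit gene 4.23 kb beyond Lrrc10, had mean normalized counts of 507 with PBS and 542 with hlOSM (adjusted p = 0.227). Gm10747, 0.24 kb before Lrrc10 on the same strand, fell with hlOSM by 0.93 on the log2 scale (adjusted p = 0.00953) at a mean of 13.7 in PBS and 6.67 with hlOSM. Its log2 difference was -0.69 with mOSM (adjusted p = 0.0591), -0.25 for hlOSM against mOSM (adjusted p = 0.904) and 0.15 with mLIF (adjusted p = 0.777). Kansl1, 1.14 kb from Mapt, fell by 0.17 with hlOSM (adjusted p = 0.0351). Cd44, 20.4 kb from Slc1a2, rose by 0.41 with mLIF (adjusted p = 0.0118) and by 1.01 with hlOSM (adjusted p = 5.13e-08), opposite to its neighbour.

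The 12 log2 values of any 2 of the 6 genes correlated with Pearson's r between 0.903 and 0.972 over 15 pairs, all of which share the same libraries and the same 4 conditions. After the condition means were taken away, r ran from -0.70 to 0.77 with a median of 0.04. The most similar profiles among genes averaging at least 50 normalized counts were, for Arc, Bhlhb9 (r = 0.972), Dapp1 (0.968) and Kcnk3 (0.966), and for Slc1a2, Tnfaip3 (0.975), Zfp275 (0.971) and Kcnk3 (0.971). Lrrc10 was matched best by Ldb3 (0.993), Clasp1 (0.988) and Pde7b (0.985). Ldb3 encodes a Z-disc protein, with means of 1186 in PBS, 955 for mLIF, 692 for mOSM and 580 for hlOSM. For Mapt the nearest were Arhgef6 (0.969), Slc1a2 (0.967) and Cdk13 (0.957), for Maf Sparcl1 (0.987), Slc4a3 (0.985) and Tsc22d3 (0.984), and for Kctd12b Abra (0.973), Arc (0.972) and Tsc22d3 (0.970). Depending on the gene of the 6, between 123 and 439 of the 8669 or 8670 genes compared had r above 0.9. The choice of the 6 by their falls also favours a high r between them. Each r is over 12 libraries and is a description.

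By the Gene Ontology terms in the deposited table, which 5 of the 6 genes carry, Arc, Slc1a2 and Mapt are annotated to the synapse, as are 4.44% of 9904 tested genes with terms. Lrrc10 is annotated to the sarcomere, as are 1.13%. Several of the 6 genes are best known from neurons, so markers of neurons and Schwann cells were read beside them. Of 10 such markers, 6 are in the table, and the neuronal Elavl4 and the glial Sox10 and S100b averaged under 1 normalized count. The summed level of the 6 was 60 to 69 with PBS, 44 to 57 for mLIF, 45 to 61 for mOSM and 35 to 53 for hlOSM. Smooth muscle and pericyte markers summed to 956 to 1203 with PBS and 892 to 949 for mLIF. With mOSM they summed to 677 to 731 and with hlOSM to 618 to 638. These sums had the same order as the 6 genes, but the single markers did not all share it. Of 7 tested markers of this list, none was called lower with mLIF against PBS, 5 were with mOSM and 6 with hlOSM. Over all tested genes these shares were 4.44%, 15.8% and 19.8%. Between hlOSM and mOSM the median log2 difference of the tested markers was -0.05. No gene of the list was called there, where 0.106% of tested genes were. The log2 difference of this step was -0.45 for Tagln, and the mean of Cspg4 went from 353 to 300. It was 0.69 for Myh11 (adjusted p = 0.508), at 4 to 8 normalized counts with mOSM and 10 with hlOSM. The mean of Kcnj8, at 6 to 13 in PBS libraries, was above that of PBS with each cytokine, without a call. Endothelial markers summed to 1188 to 1262 with PBS, 1201 to 1266 for mLIF, 1471 to 1700 for mOSM and 1477 to 1590 for hlOSM, with 6 of 8 higher with hlOSM. The part of such cells in the falls of the 6 genes was not tested.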

How the data were processed

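RNA of cultured adult mouse cardiomyocytes was sequenced from 12 libraries, 3 per condition, with conditions and replicate numbers taken from the sample titles. The authors aligned reads to mm10 (STAR 2.7.7a and featureCounts 1.6.5 in the submitters' processing notes), normalized the counts per gene and deposited them rounded to whole numbers. The deposited values are scores on a normalized count scale, and the normalization is not given in the sources used here. The depth of each library is also unknown, so count models and counting intervals were not used.

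All 22915 genes of the table were read, and the 13184 that reached 10 normalized counts in 3 or more libraries were tested with limma 3.58.1 in R 4.3.3. One fit of all 12 libraries, with a trend of the variance on the mean, was made to log2 of the normalized count plus a pseudocount of 1. Differences on this scale understate changes of low genes. Tests were two-sided, p-values were adjusted by Benjamini-Hochberg over all genes tested, and the threshold was 0.05 with no minimum fold. A call is a gene past this threshold.

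The 6 genes and all lists were chosen with earlier results of these data known. Adjusted p-values of the 6 genes are printed for mLIF against PBS only, because the levels with mOSM and hlOSM chose them. Named genes are the 6, fixed close relatives, the 2 genes of each family list with the smallest adjusted p for hlOSM and the 1 for mLIF against PBS, the 3 most correlated genes and the nearest tested neighbours. Of the genes that this rule takes, some are not reported here. Gene coordinates are those of the table, which 22676 genes share with GENCODE vM21. The fit was tested on simulated data. Alternatives were pseudocounts of 0.1 and 5, a filter at 50 or none, rescaling by a trimmed mean or by quantiles, a robust variance estimate, the compared groups alone, the replicate number as a block, and each library left out.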

Additional observations from a re-analysis of the deposited data

How the results depend on the processing

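With mLIF against PBS, 6 genes fell as reported and under the alternatives Arc, Lrrc10, Slc1a2 and Maf kept direction and call in 21 of 21, while Kctd12b lost the call in 3 and Mapt in 8. The number of the 120 family genes called with mLIF was 20 as reported and 11 with the replicate number as a block. With 1 library left out it ran from 6 to 23. The libraries that lowered it most were PBS replicate 3 (7 genes), mLIF replicate 2 (9) and mLIF replicate 3 (6).

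Deviations of libraries with the same replicate number had correlations of -0.41 to -0.15 over 18 pairs of libraries, all negative. Values from which a replicate effect was removed before deposit would look the same, so these correlations cannot decide whether the numbers pair libraries. The main fit left the numbers out. If such an effect had been removed, its p-values would be too small, and the fit with the block is the more cautious. With the block, 784 genes were called with mLIF against PBS instead of 1307, and 2 with hlOSM against mOSM instead of 14. The latter count ran from 1 to 17 with 1 library left out, and it was 0 with only the 6 libraries compared, where 759 genes had an unadjusted p under 0.05. Without any 1 library other than PBS replicate 3 and hlOSM replicate 3 it was 5 or fewer, so the membership of the 6 genes depends on the fit. The depth of each library is unknown, and precision rests on 3 libraries per condition. Kctd12b, at 19 to 28 normalized counts with hlOSM, is the least precise.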
